A study of Mus musculus with 16 samples.

Results

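The genes described here encode the proteins of the mitochondrial ribosome. They were chosen by symbol: every array row with a single gene symbol that begins with Mrpl or Mrps followed by a number. The rule found 78 genes of the 30701 genes measured. Of these, 74 are protein-coding, 48 for the large subunit and 26 for the small subunit, and 4 are pseudogenes (Mrpl23-ps1, Mrpl48-ps, Mrps36-ps1 and Mrps36-ps2). Mrps30 and Mrps18a are counted with the large subunit, where their proteins sit. The rule also keeps the row with the highest mean where a gene has several, but 0 members had more than 1 row, so no measured value decided a choice within the family. The family itself was picked out with earlier results of these arrays in view, so its counts are given beside those of all genes and nothing is read from them as particular to the family. Mrpl30, Mrpl53 and Mrps6 have no member row because the platform joins each with a neighbouring gene's symbol, and a second row of Mrps18b, joined with Gm16279, was left out for the same reason.

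The mitochondrial ribosome is the organelle's own protein factory. Its RNA comes from mitochondrial DNA, whereas every one of its proteins is encoded in the nucleus, made in the cytosol and imported. It makes the small set of hydrophobic respiratory chain subunits that mitochondrial DNA encodes, so its parts are needed in step with the nuclear-encoded subunits of the same complexes. Some of its proteins descend from the bacterial ribosome, and the rest joined during the evolution of mitochondria. In the colon, absorptive cells rely on respiration, with short-chain fatty acids such as butyrate as the main fuel.

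Microarrays measured RNA from the colon mucosa of male C57BL/6J mice in 4 groups. All mice carried both floxed Mcc alleles (Mccf/f), Mcc being a gene often silenced in colorectal cancer. The WT mice were Mccf/f siblings without the transgene, and the KO mice were VILcreMccf/f (MccΔIEC), in which the Villin promoter drives Cre in the intestinal epithelium and not in the other cells of the mucosa. From 6 weeks of age the mice spent 10 weeks on control feed or on feed with sulindac at 320 ppm. Sulindac inhibits the cyclooxygenases that make prostaglandins. Mucosa of sulindac-fed mice came only from inflamed areas of the proximal colon (here called lesions), and that of control-fed mice from the same region of normal colon. There were 6 WT control, 3 WT lesion, 3 KO control and 4 KO lesion arrays. No inflamed tissue from control feed and no uninflamed tissue from sulindac feed was included, so the drug and the inflammation cannot be told apart. No label says that each array is a separate animal, so the p-values measure the spread between these samples.

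Mcc itself was at 6.43 to 6.71 (log2) in KO controls and 6.39 to 6.48 in KO lesions, below every WT control (7.06 to 7.35) and WT lesion (7.09 to 7.40). Array medians over all rows lay between 4.901 and 5.049, and arrays of a group correlated at 0.9801 to 0.9915. The numbers in the sample descriptions fall into series under and over 500. WT controls 1 to 3 and all lesions of both genotypes have lower numbers, and WT controls 4 to 6 and all KO controls have higher ones. What the numbers stand for is not stated. Diet and number series therefore cannot be told apart within the KO mice, and the WT controls alone include arrays of both series.

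Promoter windows from RefSeq (build GRCm38.p6, 250 bases before to 50 after a listed start) were found for 65 of the 78 members. The first listed window of each gene was used, so its start need not be the outermost start of the gene. Letters tied to known regulators of nuclear genes for mitochondrial proteins were searched on both strands. They were GCGCATGC for NRF1, CCGGAAGT for ETS factors such as GABPA, AAGATGGCG for YY1 and CACGTG, the E-box that MYC and MAX bind. The NRF1 letters overlap themselves on the opposite strand, so a site can match on both. The NRF1 letters were in 8 of the 65 windows, 12.31%, beside 3.61% of the windows of 17492 protein-coding genes. The ETS letters were in 11 (16.92%, beside 5.29%), the YY1 letters in 8 (12.31%, beside 1.94%) and the E-box in 5 (7.69%, beside 7.9%). These stretches show 1 window for each of the first 3 motifs in genes that were lower in KO lesions, and the short stretch shared by a head-to-head pair of members. Capitals mark the motif letters, which here lie on the strand opposite to the spelled motif, and each stretch ends at or before the base in front of the start.

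Mrpl10, from base -180 to base -81 relative to the start, chr11:97041402-97041501, plus strand, NRF1 letters: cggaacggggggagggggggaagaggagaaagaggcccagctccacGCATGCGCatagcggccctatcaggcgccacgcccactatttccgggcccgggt
Mrps27, from base -100 to base -1, chr13:99344686-99344785, plus strand, ETS letters: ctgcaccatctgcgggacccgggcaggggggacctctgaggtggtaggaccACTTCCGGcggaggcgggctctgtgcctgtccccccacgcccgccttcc
Mrpl36, from base -100 to base -1, chr13:73330909-73331008, plus strand, YY1 letters: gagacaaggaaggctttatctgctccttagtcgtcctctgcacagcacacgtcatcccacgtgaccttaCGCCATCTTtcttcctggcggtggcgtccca
Mrpl46 and Mrps11, the 41 bases between their starts, chr7:78783090-78783130, plus strand: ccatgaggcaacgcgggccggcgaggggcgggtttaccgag

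The starts used for Mrpl36 and Mrps27 lie inside the listed spans of these genes, which begin at chr13:73328503 and chr13:99344767. The whole Mrpl36 stretch is therefore within its gene's span. The Mrpl36 stretch also holds an E-box in lower case. In the comparison of KO lesions with KO controls, 8 of the 25 members with NRF1, ETS or YY1 letters were called lower (median log2 difference -0.34). Of the 40 windows without any of those letters, 24 belonged to members called lower (median -0.39). Both counts come from a fit that ignored the number series and called 12.1% of all genes lower. Once that series entered the fit, only 1 of the 78 members was called. Whether the letters and the falls are linked was not tested. Mrpl46 and Mrps11, which share 1 stretch of upstream DNA, differed by -0.49 ± 0.14 (SE, called lower) and -0.23 ± 0.09 (adjusted p = 0.0813, not called).

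In KO mice, 38 of the 78 members were lower in lesions than in control mucosa, 0 were higher and the others did not pass the test. The 38 were 34 of the 74 protein-coding members and all 4 pseudogene rows. A gene was called where its adjusted p was under 0.05 in limma's fit over all 30701 genes. The count of 38 rested on a fit without the number series: with the series as a covariate 1 member was called. The share of all genes called lower in the same comparison was 12.1%, and 8.98% were higher. The members' median difference was -0.37 on the log2 scale, beside 0.0057 over all genes, and 76 of the 78 differences were negative. The changes were small for each gene: 16 of the called members fell by at least 0.5 on the log2 scale, and only Mrps31 fell by at least 1. In 31 members every KO lesion lay below every KO control (14.4% of all genes did so), and 25 of these were also called.

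**Figure D1:**
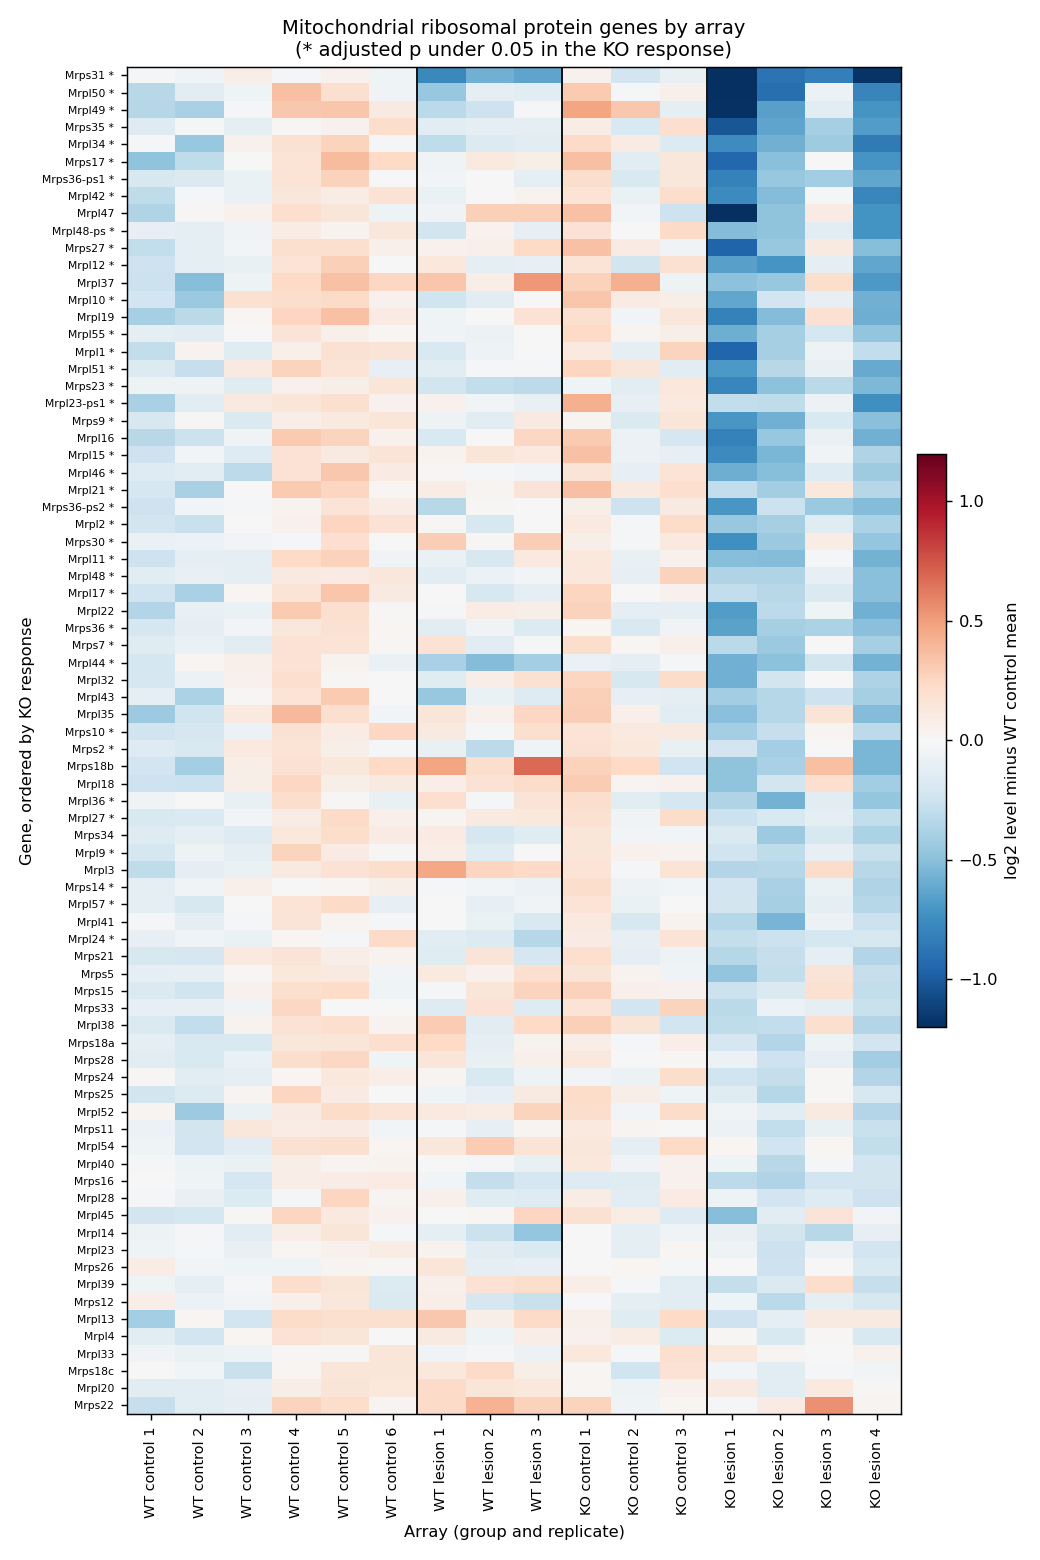
Heat map of the log2 level of 78 mitochondrial ribosomal protein genes (vertical axis, ordered by the KO response) in 16 arrays (horizontal axis, by group and replicate), as the difference from the WT control mean; colours are cut at 1.2 in both directions, and an asterisk marks the 38 genes called lower in KO lesions. KO lesions 1, 2 and 4 are blue across most rows, while KO lesion 3 is pale, and WT controls 1 and 2 are bluer than WT controls 4 and 5.

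Small subunit members had the largest single fall. Mrps31 encodes a protein of the small subunit with no bacterial counterpart. It was at 8.09, 7.83 and 7.95 in KO controls and at 6.52, 7.16, 7.22 and 6.86 in KO lesions. All 4 lesions were below all 3 controls. The difference was -1.02 ± 0.13 (SE), 2.02-fold lower, with adjusted p = 4.1e-05. Mrps35, also specific to mitochondria, was at 6.75, 6.48 and 6.86 in KO controls and at 5.64, 6.03, 6.26 and 5.99 in KO lesions. The groups did not overlap, and the fall was 1.65-fold (log2 -0.72 ± 0.13, adjusted p = 0.000678).

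Large subunit members fell by up to 1.98-fold. Mrpl50, a mitochondria-specific protein, was at 8.72, 8.39 and 8.47 in KO controls and at 6.71, 7.50, 8.33 and 7.61 in KO lesions. KO lesion 1 was far below the others and KO lesion 3 was just under the lowest control, so the groups are separate by a narrow gap (log2 -0.99 ± 0.26, adjusted p = 0.0133). Mrpl49, another protein of this kind, was at 8.66, 8.52 and 8.08 in KO controls and at 7.00, 7.54, 8.06 and 7.48 in KO lesions. Again KO lesion 3 came close to the lowest control (log2 -0.90 ± 0.23, adjusted p = 0.00958). Mrpl34, which has a bacterial counterpart, was at 7.45, 7.32 and 7.06 in KO controls and at 6.47, 6.65, 6.80 and 6.37 in KO lesions. Here all 4 lesions were clearly below the controls (log2 -0.71 ± 0.15, adjusted p = 0.00281).

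**Figure D2:**
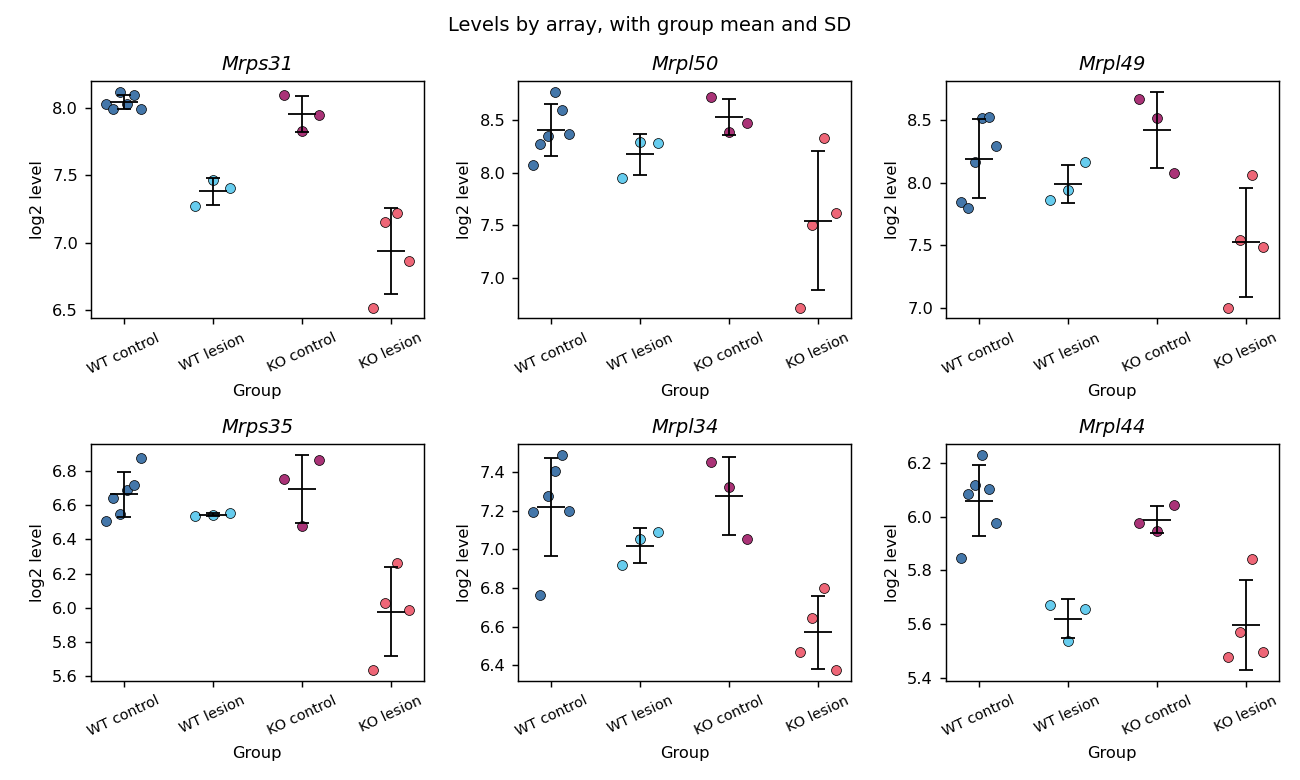
Log2 level (vertical axes, which do not start at 0) of 6 genes in each array by group; points are arrays, long ticks are group means and bars are SD over 6, 3, 3 and 4 arrays. Mrps31 and Mrpl44 are lower in the lesions of both genotypes, whereas Mrps35 is lower in KO lesions (5.64 to 6.26) than in WT lesions (6.54 to 6.55).

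The falls were spread over both subunits and both origins. In the large subunit 23 of 48 members were called lower (median -0.38) and in the small subunit 11 of 26 (median -0.29). Of the 44 proteins with a bacterial counterpart 20 were called (median -0.35), and of the 29 that are specific to mitochondria or strongly diverged 13 were (median -0.36). Mrps36, 1 of the 26 small subunit genes by symbol, is left out of that last split because its protein is now placed in the 2-oxoglutarate dehydrogenase complex. Mrps36 was called lower as well (-0.42 ± 0.09, adjusted p = 0.00469). All 4 pseudogene rows were called lower. Mrps36-ps1 was at 8.16, 7.77 and 8.09 in KO controls and at 7.14, 7.50, 7.53 and 7.33 in KO lesions (log2 -0.63 ± 0.13, adjusted p = 0.00197). Probes of such rows can also bind the RNA of the parent gene, so these 4 are not separate evidence of a change.

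Some members with defined places in the ribosome were chosen for mention after their values were seen. Mrpl10 and Mrpl12 form the stalk that recruits translation factors, and differed by -0.55 ± 0.17 and -0.57 ± 0.15, both called lower. Mrps7, a protein of the small subunit's head, differed by -0.39 ± 0.12 and was called lower. Mrps12, which lies at the decoding centre, differed by -0.09 ± 0.10, and Mrpl45, which holds the ribosome to the inner membrane, by -0.17 ± 0.15; neither was called. The only positive differences were those of Mrpl20 (0.03 ± 0.09) and Mrps22 (0.08 ± 0.15), again not called. Just inside the threshold were Mrpl57 (adjusted p = 0.0495) and Mrps2 (0.0484), and just outside it was Mrps34 (0.0501).

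The brightest member rows were those of Mrpl42 and Mrps23 and the dimmest those of Mrpl33 and Mrpl44, which on an array reflects the probes as well as the RNA. Mrpl42, with no bacterial counterpart, was at 10.06, 9.82 and 10.10 in KO controls and at 9.13, 9.38, 9.88 and 9.11 in KO lesions. KO lesion 3 lay within the range of the controls, and the gene was called lower (-0.62 ± 0.16, adjusted p = 0.0102). Mrps23, specific to mitochondria, was at 8.70, 8.63 and 8.88 in KO controls and at 7.98, 8.27, 8.44 and 8.22 in KO lesions, without overlap (-0.51 ± 0.10, adjusted p = 0.00146). Mrpl33, a small protein with a bacterial counterpart, lay between 5.27 and 5.53 on all 16 arrays and was called in no comparison.

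KO lesion 3 stood apart from the other KO lesions. The median of the members relative to the WT control mean was -0.36, -0.34 and -0.38 in KO lesions 1, 2 and 4 and -0.07 in KO lesion 3. Of the 78 members, 74, 76 and 74 were below the WT control mean in the first 3 of these arrays and 50 in KO lesion 3. Such counts were not limited to KO lesions: they were 74, 73 and 51 in WT controls 1 to 3 and 52 in KO control 2. WT controls 4 to 6 had 5, 2 and 24, KO controls 1 and 3 had 5 and 30, and WT lesions had 39, 48 and 40. In WT lesions the medians were 0.00, -0.03 and -0.00. The WT controls were not uniform either: WT controls 1 to 3, in the lower number series, had medians of -0.17, -0.12 and -0.04, and WT controls 4 to 6, in the higher series, 0.16, 0.15 and 0.05. KO controls were at 0.16, -0.05 and 0.05. Between WT controls of the higher and the lower series the members' median difference was 0.24, with 76 of 78 differences positive, whereas over all genes it was -0.026. In 53 of the 78 members the 3 arrays of the higher series were all above the 3 of the lower series, beside 2795 of all 30701 genes.

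**Figure D3:**
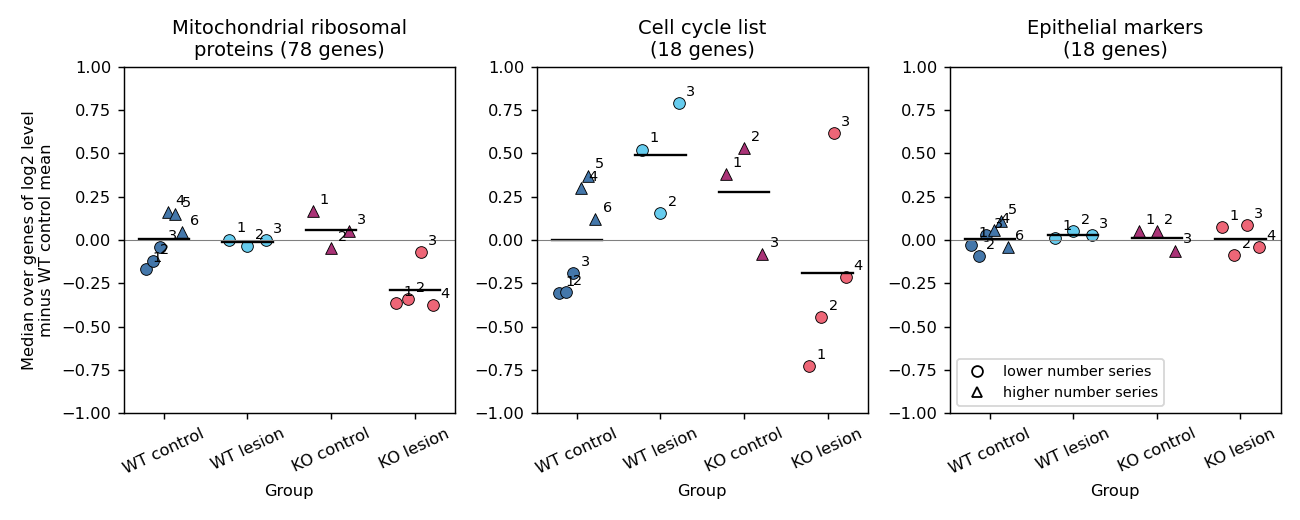
Median over genes of the log2 level minus the WT control mean (vertical axis) in each array, by group, for the mitochondrial ribosomal proteins, the cell cycle list and the epithelial markers; digits are replicates, circles and triangles are the lower and higher number series, and lines are group means. KO lesions 1, 2 and 4 have the lowest medians of the mitochondrial ribosomal proteins, between -0.34 and -0.38, and WT controls split by number series.

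The count of 38 depended on which arrays and terms entered the fit, and the share of all genes called lower moved too. It was 54 without KO lesion 3 (13.5% of all genes), and 12 without KO control 1 (7.51% of all genes), which had the highest median of the KO controls. Leaving out KO control 2 gave 29 (10.2%) and KO control 3 gave 22 (10.8%). Leaving out KO lesion 1 gave 19 (9.76%), KO lesion 2 gave 22 (10.6%) and KO lesion 4 gave 20 (9.65%). With the number series as a covariate 1 member, Mrps31, was still called (-1.03 ± 0.19, adjusted p = 0.00426), beside 3.66% of all genes, and the members' median difference was -0.10. With the series as a random block 20 were called (9.84% of all genes). In a fit of the KO arrays alone the count was 17 (8.21%), and in limma's fit with replicate numbers as a block it was 0 (0.563% of all genes). With that block 29 members had an unadjusted p under 0.05, beside 6016 of all 30701 genes. Over 15 such alternatives Mrps31 was called in 14. Mrps35, Mrpl34, Mrpl44, Mrps23, Mrpl55, Mrps9, Mrps36, Mrpl48-ps and Mrps36-ps1 were each called in 13, but not with the number series as a covariate or with the replicate block. Mrpl50 was called in 11; without KO control 1 its adjusted p was 0.0665, and that of Mrpl49 was 0.0593. Whether the number series has a part in the KO difference could not be separated from diet, because KO controls and KO lesions lie in different series.

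**Figure D4:**
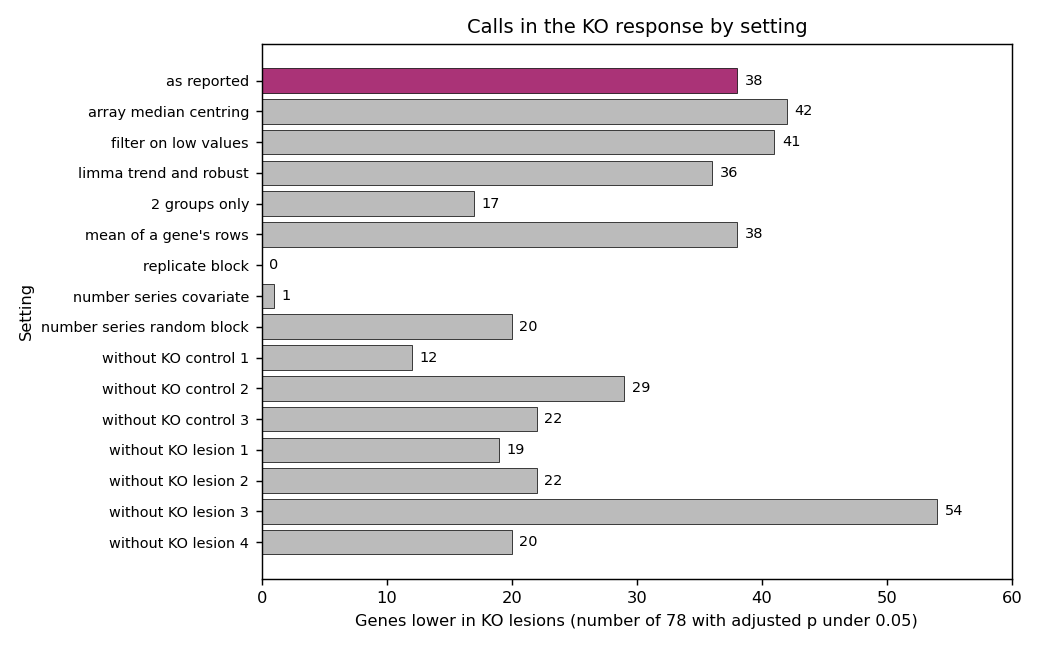
Number of the 78 mitochondrial ribosomal protein genes called lower in KO lesions (horizontal axis, from 0) as reported and under each alternative (vertical axis). The count is 38 as reported, 54 without KO lesion 3, 12 without KO control 1, 1 with the number series as a covariate and 0 with the replicate block.

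In WT mice few members were called between lesions and control mucosa. In limma's fit 3 were called lower (3.85% of the members, beside 8.36% of all genes) and 0 higher (beside 6.98% of all genes), with 8 at unadjusted p under 0.05. The median difference was -0.03, beside -0.06 over all genes, with 45 negative and 33 positive. In 4 members every WT lesion was below every WT control (11.6% of all genes), and in 1, Mrpl3, every lesion was above.

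Mrps31 ranged from 7.99 to 8.12 with a median of 8.03 in the 6 WT controls and was at 7.27, 7.47 and 7.41 in WT lesions. Every lesion was below every control, and the level was 1.58-fold lower (log2 -0.66 ± 0.12, adjusted p = 0.00117). Mrpl44, a large subunit protein related to the RNA-cutting enzyme RNase III, ranged from 5.85 to 6.23 with a median of 6.09 in WT controls and was at 5.67, 5.54 and 5.66 in WT lesions (log2 -0.44 ± 0.09, adjusted p = 0.00296). In the KO arrays Mrpl44 was at 5.98, 5.94 and 6.04 in controls and at 5.48, 5.57, 5.84 and 5.49 in lesions, again without overlap (-0.39 ± 0.10, adjusted p = 0.00814). These 2 members were the ones called lower in both genotypes. Mrpl14, a protein of the face that joins the small subunit, was the other called in WT lesions (-0.28 ± 0.08, adjusted p = 0.0318); one WT lesion, at 6.86, lay within the range of the controls (6.85 to 7.12). In the KO arrays Mrpl14 differed by -0.13 ± 0.09 and was not called.

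Set against the WT controls of their own number series, the WT lesions gave other calls. Within the lower series 4 members were called higher (6.87% of all genes were) and 2 lower (4.99% of all genes), which as shares of the 78 members are below those of all genes. The members' median difference was 0.11. The higher ones, which were noticed after their values were seen, were Mrps18b (0.64 ± 0.16), Mrpl37 (0.59 ± 0.15), Mrpl3 (0.48 ± 0.10) and Mrps22 (0.48 ± 0.09). Mrps18b was at 7.29, 7.12 and 7.60 in WT controls 1 to 3 and at 7.99, 7.73 and 8.20 in WT lesions, while WT controls 4 to 6 were at 7.71, 7.66 and 7.76. The lower ones were Mrps31 (-0.67 ± 0.09) and Mrpl44 (-0.40 ± 0.10), which thus were called lower in WT lesions with either set of controls. With the number series as a covariate over all arrays, Mrps18b and Mrpl37 were not called, and Mrpl3, Mrps22, Mrpl13 and Mrpl20 were the ones called higher. Mrpl44 missed the threshold in the fit with the replicate block (adjusted p = 0.0508).

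**Figure D5:**
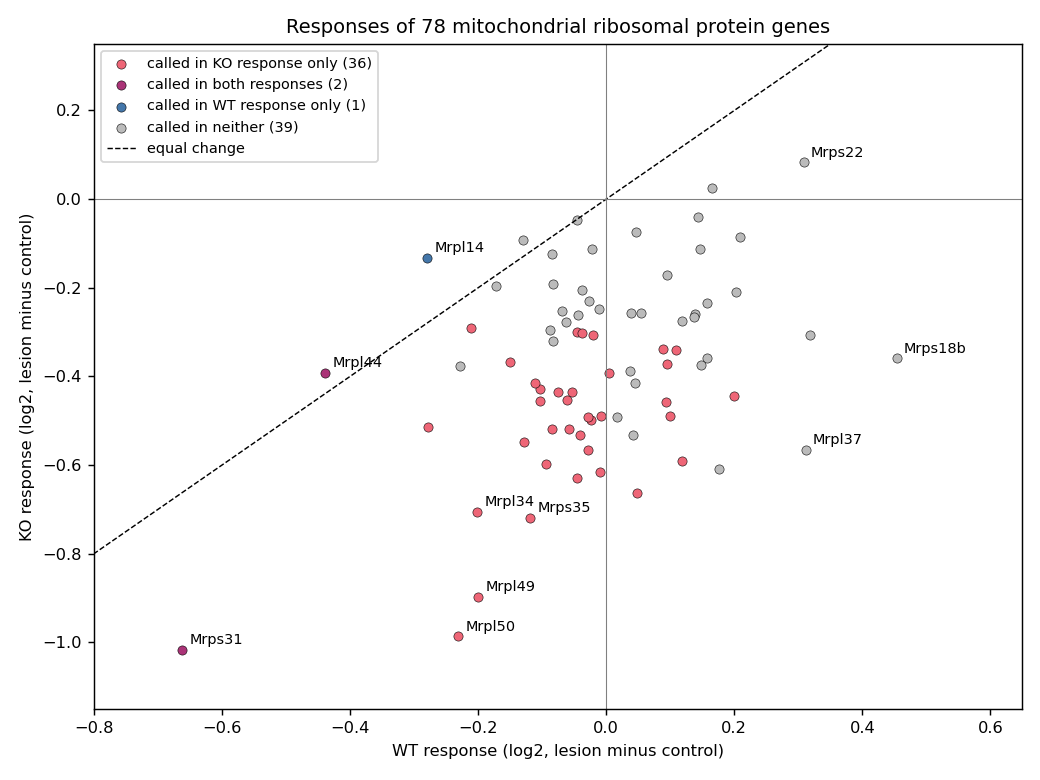
Difference between lesions and controls (log2) of each of the 78 genes in WT mice (horizontal axis) and KO mice (vertical axis); colours show which differences had an adjusted p under 0.05, and the dashed line marks equal change. In 75 of the 78 genes the KO difference is the more negative, and 2 genes, Mrps31 and Mrpl44, were called in both.

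On the control diet no genotype difference passed the threshold of limma's test: 0 members were called (0% of all genes were called). At unadjusted p under 0.05 there were 0 members, beside 641 of all 30701 genes. The median difference was 0.05 (KO minus WT), and it was -0.07 within the higher number series, the one that holds both genotypes. The members with the lowest p-values were Mrpl21, Mrpl33 and Mrpl55. Mrpl21, which has a bacterial counterpart, ranged from 7.38 to 8.08 with a median of 7.77 in WT controls and was at 8.12, 7.88 and 7.96 in KO controls (0.23 ± 0.14). Mrpl33 and Mrpl55 differed by 0.10 ± 0.06 and 0.12 ± 0.08. All 3 had adjusted p = 0.9995, and their arrays overlapped.

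Between the lesions of the 2 genotypes, 76 of the 78 members were lower in KO, with a median of -0.30 (all genes 0.0368), but 0 passed the adjusted threshold in limma's fit. At unadjusted p under 0.05 there were 43 of the 78, beside 4127 of all 30701 genes. Of all genes 0.306% were called. In 20 members all KO lesions were below all WT lesions, beside 3.92% of all genes, and in Mrpl33 all were above. Mrps35 was at 6.54, 6.54 and 6.55 in WT lesions and at 5.64, 6.03, 6.26 and 5.99 in KO lesions. The groups did not overlap, and the difference was -0.56 ± 0.13 (adjusted p = 0.0767). Mrpl36, one of the smallest proteins of the large subunit, was at 6.40, 6.17 and 6.35 in WT lesions and at 5.83, 5.63, 6.06 and 5.73 in KO lesions (-0.49 ± 0.12, adjusted p = 0.0934). Mrpl55, counted here among the proteins with a bacterial counterpart, was at 6.93, 6.91 and 6.97 in WT lesions and at 6.39, 6.58, 6.76 and 6.51 in KO lesions (-0.38 ± 0.09, adjusted p = 0.0972). Every lesion in this comparison lies in the lower number series. Without KO lesion 3, 29 members were called lower, beside 3.29% of all genes, with Mrps35 (-0.66 ± 0.12, adjusted p = 0.00656), Mrpl36 and Mrpl55 among them. Leaving out any other lesion gave 0.

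The difference between the 2 responses was tested directly as the interaction, and 0 members passed in limma's fit (0.00326% of all genes were called). At unadjusted p under 0.05 there were 35 of the 78, beside 3422 of all 30701 genes. The median was -0.39 (all genes 0.0606), and 75 of 78 were negative, that is, the KO difference was the more negative. The lowest p-values belonged to Mrpl55 (-0.49 ± 0.12, adjusted p = 0.39), Mrps35 (-0.60 ± 0.17, adjusted p = 0.397) and Mrps36-ps1 (-0.58 ± 0.17, adjusted p = 0.397). Of the 38 members called lower in KO lesions, 9 had a positive difference in WT. Without KO lesion 3 the interaction was called with a negative sign for 9 members, beside 0.775% of all genes. Among them Mrps30, chosen after its values were seen, had the lowest adjusted p (-0.80 ± 0.14, adjusted p = 0.0106). All KO controls lie in the higher number series, whereas the WT controls come from both. With all arrays and the series as a covariate 0 members were called, the median was -0.25 and 71 of 78 were negative. In that fit 12 members had an unadjusted p under 0.05, beside 1877 of all 30701 genes.

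Lists of other genes for mitochondrial protein synthesis held between 1 of 4 and 11 of 15 genes called lower in KO lesions, in the fit that called 12.1% of all genes lower; these counts were not made under the alternatives. Of 4 mitoribosomal proteins with other names, Gadd45gip1 was called lower (-0.38 ± 0.12, adjusted p = 0.0393); Dap3, Ptcd3 and Chchd1 differed by -0.20 to -0.60 and were not called. Mrpl58, a large subunit protein that releases stalled chains and that the platform lists under an older name, was called lower (-0.58 ± 0.18, adjusted p = 0.0296). Of 15 translation factors 11 were lower (median -0.48), among them Guf1, a GTPase of elongation (-0.84 ± 0.22), and Oxa1l, which inserts new chains into the inner membrane (-0.75 ± 0.19). Of 25 assembly factors 16 were lower (median -0.31), among them Tfb1m, which methylates the small ribosomal RNA (-1.19 ± 0.26), and Fastkd2 (-0.92 ± 0.26). Of 19 mitochondrial aminoacyl-tRNA synthetases and related enzymes 9 were lower (median -0.39), with Qrsl1, which helps to make glutamine-charged tRNA, at -0.78 ± 0.11. None of these 4 lists had a gene called higher in either response, and in WT lesions the counts lower were 0, 0, 3 and 1 for the other-named proteins, the translation factors, the assembly factors and the synthetases.

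The nuclear-encoded part of the respiratory chain and the expression of mitochondrial DNA were covered by further lists. Of 71 nuclear-encoded respiratory chain subunits 46 were lower in KO lesions (median -0.42) and 3 in WT lesions (median -0.12), with Sdhd, an anchor subunit of complex II, at -0.81 ± 0.15 in KO. Of 20 genes for copying and expressing mitochondrial DNA 10 were lower in KO lesions (median -0.43) and 4 in WT lesions. Fastkd1, a mitochondrial RNA-binding protein, was lower in both (-1.31 ± 0.18 in KO, -0.73 ± 0.17 in WT). The mitochondrial gene mt-Rnr1, which gives the RNA of the small mitochondrial subunit, was at 12.92, 12.97 and 13.29 in KO controls and at 13.26, 13.24, 13.17 and 13.25 in KO lesions. The groups overlapped, and the gene was not called (0.17 ± 0.10). The other of the 2 rows found for 15 listed genes of mitochondrial DNA was Gm10925, which RefSeq lists as a pseudogene with mt-Atp6, a gene for an ATP synthase subunit, among its synonyms. It differed by 0.17 ± 0.13 in KO lesions and was not called, and whether its probes bind the mitochondrial RNA was not tested. Of 34 measured cytosolic ribosomal proteins (79 listed) 5 were lower in KO lesions (median -0.23), beside 12.1% of all genes. In WT lesions 0 of these were lower, beside 8.36% of all genes. Not every mitochondrial list had many calls. Of 19 genes for mitochondrial import, chaperones and matrix proteases 3 were lower in KO lesions (median -0.16), beside 12.1% of all genes. In WT lesions 1 of these was higher and 1 lower (median 0.19).

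Among known regulators of these genes, Ppargc1a and Ppargc1b, coactivators of mitochondrial biogenesis, were lower in the lesions of both genotypes. Ppargc1a ranged from 7.62 to 8.69 in WT controls and was at 6.25, 7.09 and 6.82 in WT lesions (log2 -1.55 ± 0.31, adjusted p = 0.00284). It was at 7.77, 8.61 and 8.10 in KO controls and at 5.41, 7.11, 6.45 and 6.25 in KO lesions (-1.85 ± 0.34, adjusted p = 0.000907). The groups did not overlap in either genotype. Ppargc1b differed by -0.46 ± 0.14 in WT and -0.94 ± 0.15 in KO, both called. Max, the partner of MYC, was called lower in both (-0.42 ± 0.11 and -0.46 ± 0.12). Pprc1, a related coactivator (-0.27 ± 0.18 in KO, 0.22 ± 0.17 in WT), Nrf1 (-0.10 ± 0.07 in KO), Gabpa (0.12 ± 0.10), Gabpb1 (-0.12 ± 0.07), Yy1 (-0.01 ± 0.10) and Myc (-0.23 ± 0.27) were called in neither response.

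Lesions held other cells and other epithelial states than control mucosa, and in bulk RNA fewer cells of a type and less RNA per cell cannot be told apart. The mean of 18 epithelial markers was 10.30 to 10.45 in KO arrays of both diets and overlapped between KO controls and lesions. Single markers moved in both directions, with 6 called higher and 6 lower (differences from -0.98 to 0.73). The share of epithelial RNA in each array was not measured. Of 10 absorptive colonocyte markers 3 were lower in KO lesions (array means 10.64 to 10.86 in KO controls, 9.43 to 10.48 in KO lesions) and 5 in WT lesions (9.50 to 10.16). Of 7 goblet cell markers 6 were lower in KO lesions (10.59 to 11.28, against 11.85 to 11.95) and 4 in WT lesions. All 7 neutrophil markers were higher in both, with array means of 4.84 to 5.18 in controls, 7.54 to 8.36 in WT lesions and 8.64 to 10.15 in KO lesions; in controls 6 of the 7 were under the median of all genes. All 11 macrophage markers were higher in KO lesions and 10 in WT lesions. Of 7 fibroblast markers 6 were higher in each (array means 5.92 to 6.28 in controls and 7.00 to 7.43 in lesions). Of 7 T and NK cell markers 5 were higher in KO lesions and 4 in WT lesions, and of 6 endothelial markers 3 and 2. The part of these cells in the members' differences was not tested.

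The cell cycle list, like the members, was highest in KO lesion 3 among the KO lesions. Of its 18 measured genes 1 was lower in KO lesions (Tyms, -0.85 ± 0.23, adjusted p = 0.0161), beside 12.1% of all genes. In WT lesions 1 was higher, beside 6.98% of all genes. The list had a median difference of -0.45 in KO and 0.51 in WT. Relative to the WT control mean it was at -0.73, -0.44 and -0.21 in KO lesions 1, 2 and 4 and at 0.62 in KO lesion 3. The order was not the same elsewhere: KO lesion 4 had the lowest median of the members (-0.38) but not of this list, and KO control 2 had the lowest median of the members among KO controls (-0.05) and the highest of this list (0.53). It also differed between WT controls of the lower series (-0.31, -0.30 and -0.19) and of the higher series (0.30, 0.37 and 0.12). The part of proliferating cells in the members' differences was not tested.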

How the data were processed

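RNA was measured on 16 arrays. The deposited values are log2 signals made with RMA in Affymetrix Power Tools 1.16.1, per the submitters' processing notes; the genome build is not given in the sources used here. The probe-to-gene table lists 32750 of 72688 rows, 31258 with 1 symbol and 1492 with several; 39938 rows are unnamed here. Symbols were updated through RefSeq and the row with the highest mean was kept for each of 30701 genes. No filter on low values was used. Means of the 4 groups were fitted to all 16 arrays with limma 3.58.1 (R 4.3.3), with two-sided empirical Bayes tests and Benjamini-Hochberg adjustment over all genes. The script was tested on simulated data. Errors after ± are standard errors unless SD is given.

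The members, the gene lists and the markers were chosen with earlier results of these data known. Members were named by rule: the 6 largest falls and 4 largest rises among called, non-overlapping members of each response, the 3 lowest p-values in a comparison without calls, and the 2 brightest and 2 dimmest rows. Lists gave at most 2 genes each; all measured regulators were printed.

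Same-numbered lesions of the 2 genotypes deviated together (r = 0.4654, 0.296 and 0.5398). No label says that they are paired, differently numbered arrays were not compared, and the reported fit has no replicate term. With the replicate block the count between these lesions stayed at 0. In the WT response the values were 0.3476, 0.171 and 0.0968. In the KO response and between the genotypes on the control diet all were negative.

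Alternatives were centring on array medians, a filter on low values, trend and robust moderation, fits of 2 groups, the mean of a gene's rows, each array left out, the replicate block and the number series as a covariate, as a random block or by restriction to 1 series.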

Additional observations from a re-analysis of the deposited data

Results flagged for a closer look

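Mrpl36 in WT control 4 was at 6.4101, apart from the other WT controls, which lay between 6.11 and 6.21; its gap to the next array was 0.6634 of the group's range. It was the 1 such value in 28 groups of arrays examined for the named members, and chance marks about 1 group in 20. WT lesions 1 and 3 (6.40 and 6.35) and KO control 1 (6.41) were as high.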

How the results depend on the processing

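Of the alternatives tried on the 5 counts of called members, 75 left the count within 1.5 times, 9 gave fewer calls and 5 gave more. Most of the 75 were counts of 0 that stayed at 0. All 9 with fewer calls were among the 15 alternatives for the KO response. In the KO response the 38 calls became 17 with the KO arrays alone, 0 with the replicate block, 1 with the number series as a covariate, 20 with it as a random block and 12 to 54 when each array was left out. In the WT response the 3 calls became 5 with the replicate block (4 higher, 1 lower) and 6 (4 higher, 2 lower) with the number series as a covariate or within the lower series, not all of them the same genes. Leaving out an array gave 0 to 29 calls between the lesions of the 2 genotypes and 0 to 9 for the interaction, above 0 only without KO lesion 3. In the KO response same-numbered arrays deviated in opposite directions (r = -0.1451, -0.174 and -0.2998), and no label says whether they are paired. No member named by rule changed direction, but other members did. With the number series as a covariate 62 of the 78 KO differences were negative, beside 76 in the reported fit. Centring, the low-value filter and robust moderation kept the KO count between 36 and 42. The cause of these changes was not tested. With 3 to 6 arrays a group, the number of arrays limits the precision.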
